A study of Mus musculus with 6 samples.

Results

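The cyclin-dependent kinase (CDK) inhibitor genes Cdkn2a, Cdkn2b, Cdkn2c, Cdkn2d, Cdkn1a, Cdkn1b and Cdkn1c were followed across mouse CD4 T helper cell cultures with and without Ezh2. The genes were read from all probe sets annotated to exactly 1 of these 7 symbols with a value on all 6 arrays, which gave 9 probe sets of 34945 with a single symbol, and 7 genes of 18193. Gene expression was read on 6 Affymetrix 3' expression arrays, 1 array for each of 2 genotypes in each of 3 cultures. All cells were labelled naive CD4 T cells (CD44 low, CD62L high) of C57BL/6 mouse spleen, wild type or Ezh2 KO. Every culture received plate-bound antibody to TCRβ at 10 µg/ml, antibody to CD28 at 1 µg/ml and IL-2 at 15 ng/ml. The cells stayed in culture for 5 days, 2 with these antibodies and 3 without them. Th1 cultures also held IL-12 at 1 ng/ml with antibody to IL-4, Th2 cultures IL-4 at 10 ng/ml with antibody to IFN-γ, and unpolarized cultures both blocking antibodies. The promoter that drives the deletion, the deleted part of Ezh2, the age of the mice and whether arrays came from separate mice are not given in the sources used here. With 1 array per genotype and culture, the p-values and SDs below rest on how far the genotype difference varies between the 3 cultures. That spread mixes any real difference between cultures with noise, and it is not a spread between replicates or mice.

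CDK inhibitors slow the cell cycle by binding the kinases that drive it. The INK4 proteins, encoded by the Cdkn2 genes, bind CDK4 and CDK6 and keep cyclin D from activating them, while the Cip/Kip proteins, encoded by the Cdkn1 genes, act on cyclin-CDK complexes more widely, above all those of CDK2. Cdkn2a and Cdkn2b lie side by side in a locus known as a classical target of Polycomb repression, and Ezh2 is a catalytic subunit of Polycomb repressive complex 2. Cdkn2a has separate start sites for p16Ink4a, an inhibitor of CDK4 and CDK6, and for p19Arf, which shields p53 by binding Mdm2. In T cells p27Kip1 (Cdkn1b) is known for holding resting cells out of the cycle, and p21Cip1 (Cdkn1a) as a target of p53.

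The start regions of the members that changed are shown first, because the members belong to different kinds of promoter. Each window runs from 250 bases before to 50 bases after a RefSeq start site (GRCm38.p6), read 5′ to 3′ on the gene's strand. Capitals mark CG dinucleotides (CpG), except in the upstream Cdkn1a window, where they mark CATG, any 6 bases and CATG again, the spacing of the core letters in a p53 half-site pair.
Cdkn2a upstream start, chr4:89294570-89294869, minus strand: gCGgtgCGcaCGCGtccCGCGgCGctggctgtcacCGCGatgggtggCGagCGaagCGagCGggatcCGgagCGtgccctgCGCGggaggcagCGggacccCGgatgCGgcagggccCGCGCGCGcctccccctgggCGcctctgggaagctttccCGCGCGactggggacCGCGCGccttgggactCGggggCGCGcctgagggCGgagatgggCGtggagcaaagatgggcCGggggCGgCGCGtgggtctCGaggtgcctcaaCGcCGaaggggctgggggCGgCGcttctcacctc
Cdkn2a downstream start, chr4:89282143-89282442, minus strand: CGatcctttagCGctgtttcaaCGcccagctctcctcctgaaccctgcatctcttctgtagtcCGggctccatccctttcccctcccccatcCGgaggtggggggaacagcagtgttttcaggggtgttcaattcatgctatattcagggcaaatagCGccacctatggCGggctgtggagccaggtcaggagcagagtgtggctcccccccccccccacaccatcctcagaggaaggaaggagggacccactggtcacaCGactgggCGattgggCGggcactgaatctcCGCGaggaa
Cdkn2b, chr4:89310983-89311282, minus strand: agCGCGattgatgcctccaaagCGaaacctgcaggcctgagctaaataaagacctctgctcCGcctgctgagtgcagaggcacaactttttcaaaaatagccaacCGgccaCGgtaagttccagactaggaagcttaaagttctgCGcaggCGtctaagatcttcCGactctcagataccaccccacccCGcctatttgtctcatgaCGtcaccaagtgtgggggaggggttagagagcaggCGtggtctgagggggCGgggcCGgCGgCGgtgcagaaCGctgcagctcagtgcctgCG
Cdkn1a upstream start, chr17:29090729-29091028, plus strand: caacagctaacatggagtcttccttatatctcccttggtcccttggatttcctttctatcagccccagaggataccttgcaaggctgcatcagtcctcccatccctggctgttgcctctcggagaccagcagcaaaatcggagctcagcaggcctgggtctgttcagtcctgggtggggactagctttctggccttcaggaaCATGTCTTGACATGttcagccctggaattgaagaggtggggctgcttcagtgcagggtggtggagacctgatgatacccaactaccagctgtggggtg
Cdkn1a downstream start, chr17:29093519-29093818, plus strand: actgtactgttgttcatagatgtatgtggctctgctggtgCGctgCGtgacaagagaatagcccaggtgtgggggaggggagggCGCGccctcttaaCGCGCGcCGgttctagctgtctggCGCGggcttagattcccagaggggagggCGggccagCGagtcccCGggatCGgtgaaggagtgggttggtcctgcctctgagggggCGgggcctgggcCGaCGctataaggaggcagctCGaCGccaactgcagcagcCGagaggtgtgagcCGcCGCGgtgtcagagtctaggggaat
Cdkn1b, chr6:134920151-134920450, plus strand: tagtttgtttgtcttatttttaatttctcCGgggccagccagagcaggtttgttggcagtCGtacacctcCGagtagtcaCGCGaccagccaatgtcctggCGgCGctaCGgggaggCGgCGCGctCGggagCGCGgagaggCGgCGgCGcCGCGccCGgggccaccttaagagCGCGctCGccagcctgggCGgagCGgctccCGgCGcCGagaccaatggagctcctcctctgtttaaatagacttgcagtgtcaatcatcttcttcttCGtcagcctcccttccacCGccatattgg

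Of the 7 genes 6 matched the RefSeq promoter table by symbol, with 9 windows. The median window of all 32851 held 7 CpG. The upstream Cdkn2a window, the known start of the p19Arf transcript, held 45 CpG, more than nearly all other windows (98.4th percentile, ties counted). The downstream one, 12427 bases away and the known start of p16Ink4a, held 12 CpG (62.1st percentile). Cdkn2b held 18, the downstream Cdkn1a window 23 and Cdkn1b 30. The upstream Cdkn1a window held 2 CpG and 1 match to the paired p53 pattern, at base 203 of the window. That pattern, searched on both strands, occurred in 0.712% of all windows and in 1 of the 9 member windows. Cdkn2b was the 1 member with a cyclic AMP response element (TGACGTCA, both strands, 1.79% of all windows). This element holds a CG, so its match at base 205 overlaps one of the counted CpG. The windows of Cdkn2c held 33 and 8 CpG and that of Cdkn2d 22. These matches are descriptions of letters and were not tied to any measured binding.

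Readings of a probe set are given below as 3 values in the order unpolarized, Th1, Th2, first for wild type and then for Ezh2 KO. The arrays were closely alike in scale. The trimmed mean intensity was 500.003 on each, and medians ran from 61.3 to 69.1. An intensity of 64.43, the median of all values, serves below as the low-signal limit. Values under 11.33, the 20th percentile, were raised to that floor before log2 was taken. The targeted gene, Ezh2, gave 7002, 6553 and 7677 in wild type against 4971, 4876 and 4946 in Ezh2 KO cells, a difference of -0.52 ± 0.11 on the log2 scale (SD, n = 3 cultures; limma adjusted p = 0.0437, and 0.0923 with each array centred on its median). Much signal therefore remained, and which part of the gene the probe set reads relative to the deletion is not known, so it checks the labels only weakly. The 7 CD4 T cell markers tested were read on every array, from Cd3d at 19785 to 25699 down to Cd4 itself at 300.2 to 548.1, and are given with the markers of other cells further on. In such bulk samples, fewer cells of a type and less RNA per cell cannot be told apart.

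Between genotypes, 3 of the 7 CDK inhibitor genes rose in Ezh2 KO (Cdkn2a, Cdkn2b and Cdkn1a), 1 fell (Cdkn1b) and 3 did not pass the test (Cdkn2c, Cdkn2d and Cdkn1c). Of the 11572 genes tested, 16.3% were called, 8.35% higher and 7.98% lower (limma, blocked by culture, at a Benjamini-Hochberg adjusted p under 0.05). The median difference of the 7 was 0.31 on the log2 scale, against -0.07 over all genes tested. In 5 of 7 genes every Ezh2 KO array lay above every wild type array, which held for 20.1% of all genes tested, and in 1 of 7 every one lay below (27.5% of all). Cdkn2a and Cdkn2b entered the test through their Ezh2 KO arrays alone, since testing required 1 array at or over the low-signal limit. Among the 9 probe sets 3 were called higher and 1 lower in a fit of 21563 probe sets, where 9.17% were called, 5.10% higher and 4.08% lower.

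**Figure D1:**
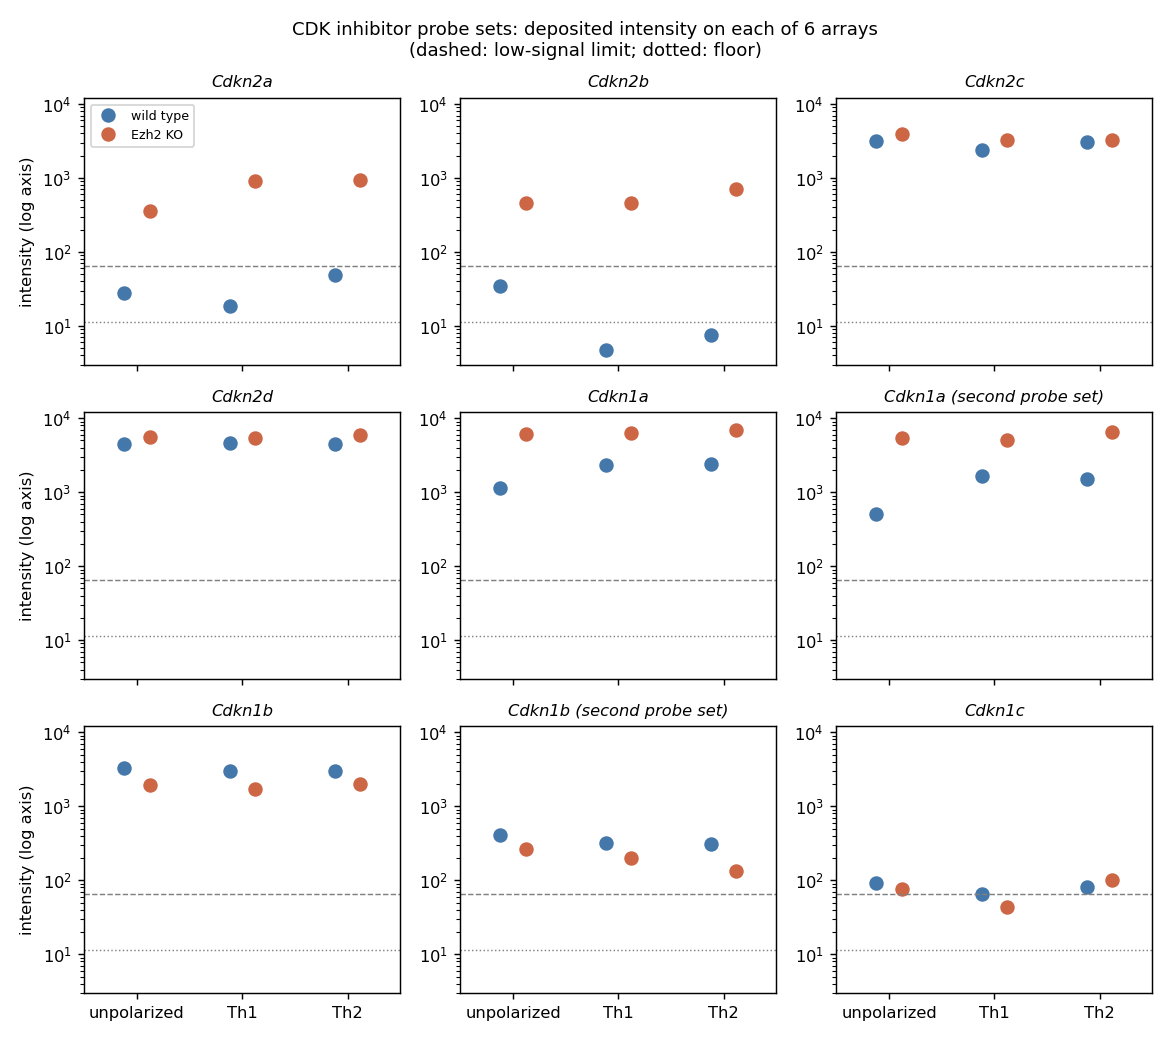
Deposited intensity (log axis) of the 9 CDK inhibitor probe sets on each of the 6 arrays, wild type in blue and Ezh2 KO in orange, by culture; the dashed line is the low-signal limit (64.43) and the dotted line the floor (11.33). Cdkn2a and Cdkn2b are under the limit on all wild type arrays and above it on all Ezh2 KO arrays, while Cdkn1c lies near the limit in both genotypes.

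Cdkn2a, the gene of p16Ink4a and p19Arf, gave 27.6, 18.5 and 48.3 in wild type against 362.2, 904.0 and 934.3 in Ezh2 KO cells. All wild type readings were under the low-signal limit and all Ezh2 KO readings well over it. Against that limit Cdkn2a was at least 5.62-fold higher in Ezh2 KO in unpolarized, 14.03-fold in Th1 and 14.5-fold in Th2 cultures. The log2 difference of the floored values was 4.53 ± 0.97 (SD, n = 3 cultures; limma adjusted p = 0.0242, and 0.0815 with no filter on low values), a size that depends on the dim wild type readings and is not an exact fold. The gene has 1 probe set here, named from the RefSeq accession of 1 transcript, and whether its signal comes from p16Ink4a, p19Arf or both transcripts was not tested.

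Cdkn2b encodes p15Ink4b, an INK4 inhibitor known to be induced by TGF-β. Its wild type readings were 34.3, 4.77 and 7.56, the last 2 under the floor, and its Ezh2 KO readings were 455.2, 459.1 and 705.3. All 3 wild type readings were under the low-signal limit and all Ezh2 KO readings over it. Against that limit Cdkn2b was higher in Ezh2 KO by at least 7.07-fold in unpolarized, 7.13-fold in Th1 and 10.9-fold in Th2 cultures. The log2 difference of the floored values was 5.01 ± 1.15 (SD, n = 3; limma adjusted p = 0.0257, and 0.0822 with no filter on low values). The fitted sizes of both genes, and their order, depend on the floor. With every value under the low-signal limit raised to that limit, an alternative chosen after the values were seen, the differences were 3.39 for Cdkn2a and 3.04 for Cdkn2b (limma adjusted p = 0.00947 and 0.00432). At that floor all wild type readings of both genes are the same value. The spread of each gene behind these p-values is then that of its Ezh2 KO arrays alone, so they add no support.

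Cdkn2c (p18Ink4c) and Cdkn2d (p19Ink4d), the INK4 genes outside this locus, were bright in both genotypes. Cdkn2c gave 3140, 2403 and 3047 in wild type against 3957, 3249.8 and 3227 in Ezh2 KO cells. The groups did not overlap, but the gap in Th2 cultures was small. The difference was 0.28 ± 0.18 (SD, n = 3), with a 95% confidence interval from -0.03 to 0.60 and a limma adjusted p of 0.152. Cdkn2d gave 4546, 4635 and 4439.8 in wild type against 5539.9, 5407 and 5928 in Ezh2 KO cells, with no overlap. It varied 1.04-fold among the wild type and 1.10-fold among the Ezh2 KO cultures. Its difference of 0.31 ± 0.10 (SD, n = 3; 95% confidence interval 0.06 to 0.56) did not pass (limma adjusted p = 0.0931). It passed when limma's spread was allowed to follow intensity (adjusted p = 0.0111), without the culture block (0.0378) and with a stricter filter on low values (0.0280), and Cdkn2c passed with the first of these (0.0355).

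The lowest of these bounds, at least 5.62-fold for Cdkn2a and 7.07-fold for Cdkn2b in unpolarized cells, exceeded the highest ratio of Cdkn2c (1.35, Th1) and of Cdkn2d (1.34, Th2). The difference between the pair and the other INK4 genes was not tested.

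**Figure D2:**
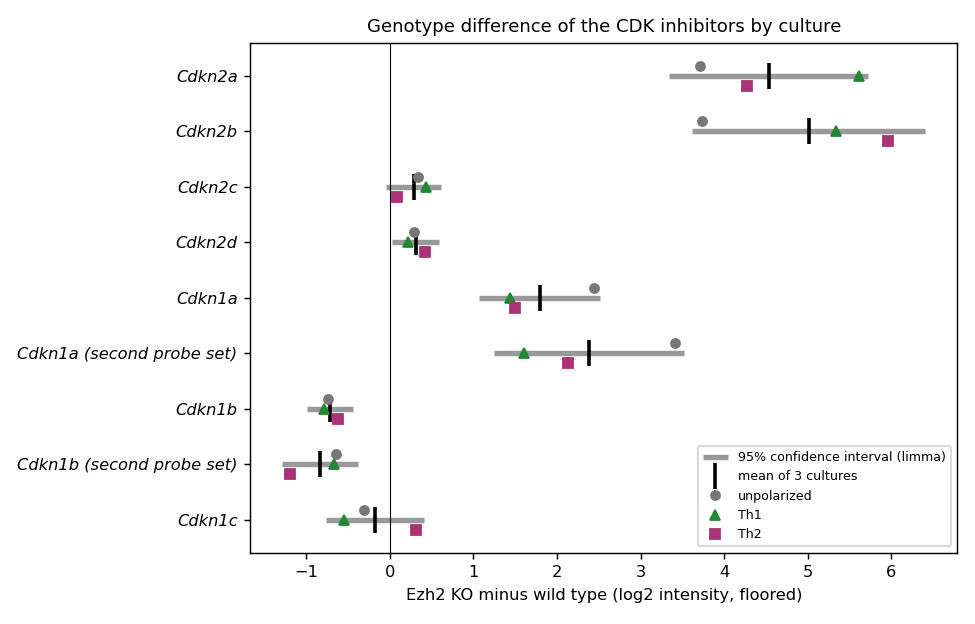
Ezh2 KO minus wild type on the log2 scale of floored intensities for the 9 probe sets, with 1 symbol per culture, a black bar for the mean and a grey bar for limma's 95% confidence interval in the fit of single probe sets. Cdkn2a and Cdkn2b lie between 3.71 and 5.96 in every culture, sizes that depend on the floor, Cdkn1a is above 0 and Cdkn1b below 0 on both of their probe sets, and Cdkn1c goes both ways.

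Neither tested neighbour of the pair, Mtap nor Ifna1, passed the genotype test. No other gene with a named probe set lies between Cdkn2a and Cdkn2b, and the next such genes in RefSeq chromosome order are Mtap, Ifna1 and Ifna4 on the Cdkn2a side and Dmrta1, Zfp352 and Elavl2 on the Cdkn2b side. Mtap, an enzyme of methionine salvage, gave 2608, 2525 and 2370.1 in wild type against 2663, 2640.1 and 2281 in Ezh2 KO cells, a difference of 0.01 ± 0.06 (SD, n = 3; 95% confidence interval -0.22 to 0.25; limma adjusted p = 0.919). The Mtap groups overlapped. Ifna4, Dmrta1, Zfp352 and Elavl2 stayed below the low-signal limit throughout, and Ifna1 exceeded it on 1 array, at 66.4 in Ezh2 KO Th1 cells (limma adjusted p = 0.809).

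**Figure D3:**
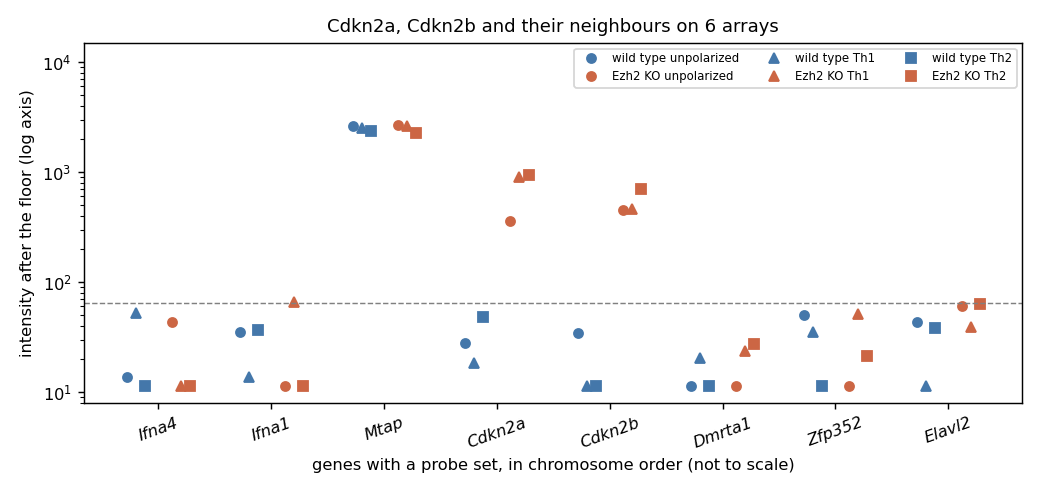
Intensity after the floor (log axis) on the 6 arrays for Cdkn2a, Cdkn2b and the 3 nearest genes with a probe set on each side, in chromosome order and not to scale; colour gives genotype, symbol gives culture and the dashed line is the low-signal limit (64.43). Mtap is bright and alike in both genotypes, and the other neighbours lie at or near the limit or under it.

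In the Cip/Kip family Cdkn1a rose and Cdkn1b fell. Cdkn1a encodes p21Cip1, which inhibits cyclin-CDK2 complexes and binds PCNA. Its readings were 1138, 2321 and 2421 in wild type against 6198, 6293 and 6822 in Ezh2 KO cells. Wild type readings spread 2.13-fold and Ezh2 KO readings 1.10-fold, and the groups did not overlap. The difference was 1.79 ± 0.57 (SD, n = 3; limma adjusted p = 0.0347), with folds of 5.45 in unpolarized, 2.71 in Th1 and 2.82 in Th2 cultures. The second Cdkn1a probe set gave 503.2, 1653 and 1501 in wild type against 5356, 5026 and 6562 in Ezh2 KO cells. Its groups were apart as well, with a difference of 2.38 ± 0.93 (SD, n = 3) that missed the threshold among all probe sets (limma adjusted p = 0.0509).

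Cdkn1b encodes p27Kip1, an inhibitor that is high in resting lymphocytes and removed by SCF-Skp2 when they divide. Its brighter probe set gave 3249.9, 2993 and 3038 in wild type against 1946, 1737 and 1978 in Ezh2 KO cells. The groups were separate and each varied little, 1.09-fold and 1.14-fold from lowest to highest. The gene was 1.64-fold lower in Ezh2 KO, a difference of -0.71 ± 0.09 on the log2 scale (SD, n = 3; limma adjusted p = 0.0295). The dimmer probe set gave 414.9, 321.4 and 308.8 in wild type against 266.0, 202.2 and 134.6 in Ezh2 KO cells, also without overlap. Its difference was -0.84 ± 0.31 (SD, n = 3) and did not pass among all probe sets (limma adjusted p = 0.0585).

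Cdkn1c, the imprinted gene of p57Kip2, read close to the low-signal limit. Its values were 92.9, 64.4 and 80.5 in wild type against 75.2, 43.9 and 100.1 in Ezh2 KO cells. The groups overlapped, and 2 of 6 readings were under the limit. The difference was -0.18 ± 0.45 (SD, n = 3), with a 95% confidence interval from -0.77 to 0.41 and a limma adjusted p of 0.557.

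All 4 calls rest on the full set of 6 arrays. With any 1 culture left out, or with no filter on low values, 0 of 7 genes passed in limma, as did 0 of all genes. Then 4 of 7 and 5 of 7 had an unadjusted limma p under 0.05, against 5 of 7 with all arrays. Over all genes that held for 2952 to 3227 of 11572 with a culture left out. It held for 4711 of 18193 with no filter and for 4479 of 11572 with all arrays. After median centring of the arrays the 4 calls held, and the calls over all genes split into 862 higher and 411 lower, against 966 and 924.

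Between cultures no CDK inhibitor gene passed in limma with genotype as a block. The shares called were 0 of 11572 genes for Th1 against unpolarized, Th2 against unpolarized and Th1 against Th2, with 632, 775 and 878 genes at an unadjusted p under 0.05. Among the members Cdkn1c, lower in Th1 than in Th2 by 0.76, was the 1 gene with an unadjusted limma p under 0.05 in any of the 3 comparisons (adjusted p = 0.657). These comparisons share arrays and are not separate support.

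Within wild type, the Cdkn1a reading of Th1 cells was 2.04-fold and its Th2 reading 2.13-fold the unpolarized one, and 3.29-fold and 2.98-fold on the second probe set. In Ezh2 KO the corresponding ratios were 1.02 and 1.10, and 0.938 and 1.23 on the second probe set. Each of these ratios compares 2 arrays with no replicate, and an interaction of genotype and culture could not be fitted with 1 array per group. Averaged over genotypes, the first probe set gave 0.53 for Th1 against unpolarized (95% confidence interval -0.37 to 1.42; limma adjusted p = 0.857).

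Cdkn2a in Ezh2 KO was 2.496-fold higher in Th1 and 2.58-fold higher in Th2 than in unpolarized cultures, while the Cdkn2b ratios were 1.01 and 1.55. These ratios, too, compare single arrays with no replicate. The wild type readings of both genes were too low to be ordered. Averaged over genotypes, Cdkn2a gave 0.37 for Th1 and 1.09 for Th2 against unpolarized (limma adjusted p = 0.916 and 0.824). Cdkn2c was lower in Th1 than in unpolarized cultures in both genotypes, at 0.765 and 0.821 of the unpolarized reading. That difference of -0.34 did not pass (limma adjusted p = 0.857), nor did any culture difference of Cdkn2d, which lay between -0.04 and 0.03.

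The targets of these inhibitors were then read from lists of cell cycle genes. Of 12 G1 cyclins and CDKs 1 rose (8.35% of all genes tested) and 1 fell (7.98%), with a list median of -0.14. Ccnd2, a D-type cyclin of lymphocytes, rose 1.72-fold (0.78 ± 0.14, SD, n = 3; limma adjusted p = 0.0302), from 8839, 9554 and 8752 to readings between 14904 and 16462. Ccnh, a subunit of the CDK-activating kinase, fell by 0.51 ± 0.08 (limma adjusted p = 0.0413). Cdk4, a kinase bound by INK4 proteins, gave -0.43 ± 0.16 and Cdk2, bound by Cip/Kip proteins, -0.39 ± 0.06, and neither passed (limma adjusted p = 0.0710 and 0.0577). Cdk6, which INK4 proteins also bind, went the other way, at 0.24 ± 0.18, and did not pass (limma adjusted p = 0.187). Of the 12 genes 3 were higher in all 3 cultures (26.2% of all genes tested) and 6 lower (36.3%).

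Of 11 tested cyclins and kinases of S phase, G2 and mitosis 0 rose (8.35% of all genes tested) and 2 fell (7.98%). The median was -0.35, and 9 of 11 were lower in all 3 cultures, as were 36.3% of all genes tested. Cyclin A (Ccna2) fell by 0.55 ± 0.15 and the inhibitory kinase Wee1 by 0.52 ± 0.13 (SD, n = 3; limma adjusted p = 0.0470 and 0.0465). Cdc25c and Plk1 gave -0.70 ± 0.30 and -0.56 ± 0.26 and did not pass (limma adjusted p = 0.0596 and 0.0720). Of 16 proliferation markers 0 rose (8.35% of all genes tested) and 3 fell (Bub1, Bub1b and Aurkb, 7.98% of all). The median was -0.39 and 12 of 16 were lower in all 3 cultures (36.3% of all genes tested). Rrm2, higher in all 3 cultures, gave 0.28 ± 0.06 and did not pass (limma adjusted p = 0.0932). The summed intensity of the 16 markers ran from 140792 to 149681 in wild type and from 123267 to 126350.0 in Ezh2 KO. The part of this shift in the CDK inhibitor values was not tested.

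Of 13 genes of the RB and E2F families, which act below CDK4 and CDK6, 0 were called in limma (16.3% of all genes tested), with a median of -0.05. The pocket protein gene Rbl2 gave 0.36 ± 0.22 and Rbl1 -0.35 ± 0.07 (SD, n = 3; limma adjusted p = 0.121 and 0.0707). The E2F partner Tfdp2 gave -0.69 ± 0.49 and the repressor E2f7 -0.47 ± 0.22 (limma adjusted p = 0.114 and 0.0822).

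Cdkn1a is itself a gene of the p53 axis. Of 20 tested genes of that list, Cdkn1a counted apart, 7 rose (8.35% of all genes tested) and 0 fell (7.98%), and the median was 0.52 (-0.07 over all). In all 3 cultures 16 were higher (26.2% of all) and 1, Gadd45a, was lower (36.3% of all). Gadd45a gave -0.37 ± 0.06 and did not pass (limma adjusted p = 0.0616). This list, like the members and the other lists, was chosen with earlier results of these data known. The shares beside its counts therefore describe and do not test it. Pmaip1, a pro-death BH3 protein, rose 4.61-fold and the membrane protein Perp 3.66-fold, from 133.0, 244.1 and 221.0 to 510.3, 678.8 and 1013 (1.87 ± 0.37, SD, n = 3; limma adjusted p = 0.0241). Mdm2, which degrades p53 and is itself a p53 target, rose by 0.78 ± 0.21 (limma adjusted p = 0.0379), Btg2 by 0.69 ± 0.18 and Sesn2 by 1.08 ± 0.39 (limma adjusted p = 0.0396 and 0.0427). Trp53inp1 and Ei24 were the other two. The RNA-binding protein gene Zmat3 gave 0.82 ± 0.33 and missed the threshold (limma adjusted p = 0.0514).

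**Figure D4:**
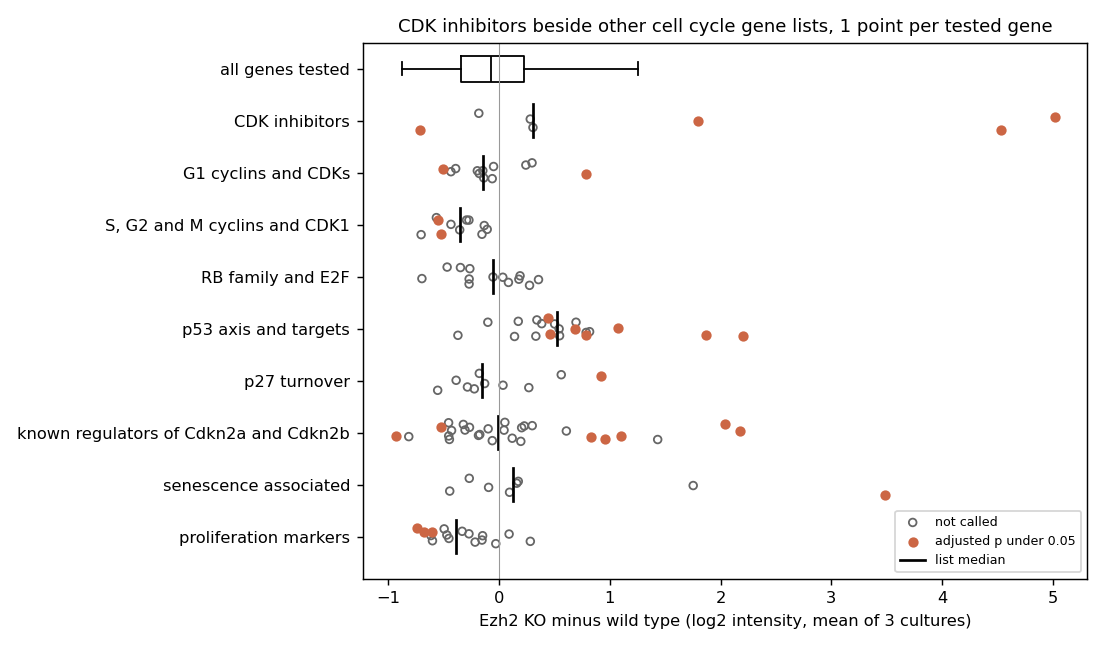
Ezh2 KO minus wild type (log2 intensity, mean of 3 cultures), 1 point per tested gene, for the CDK inhibitors and 8 other gene lists, with filled points for genes at an adjusted p under 0.05 and a black bar for each list's median; the box at the top spans the quartiles of all 11572 genes and its whiskers the 5th to 95th percentiles. Cdkn2a and Cdkn2b lie at 4.53 and 5.01, beyond every gene of the other lists, and at 3.39 and 3.04 with the floor at the low-signal limit.

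Known regulators of the 2 loci went both ways. Of 28 tested regulators of Cdkn2a and Cdkn2b, 5 rose (Bmi1, Id2, Jun, Tgfbr1 and Tgfbr2) and 2 fell (Cbx7 and Ezh2), with a median of -0.01. Ezh2 is the gene targeted by the design, so its fall says nothing about the other regulators. Of all genes tested, 8.35% were called higher and 7.98% lower. Id2, which blocks basic helix-loop-helix factors, rose 4.12-fold, from 3347, 4599 and 4865 to 14934, 19448 and 18065 (2.04 ± 0.14, SD, n = 3; limma adjusted p = 0.0143). The TGF-β receptor genes Tgfbr2 and Tgfbr1, whose pathway induces Cdkn2b in other cells, rose by 1.11 ± 0.16 and 0.83 ± 0.16 (limma adjusted p = 0.0242 and 0.0302). Id1 gave 1.43 ± 0.87 and did not pass (limma adjusted p = 0.0828). Bmi1, a PRC1 subunit known to repress this locus, gave 1026, 1269 and 1042 in wild type against 4531, 5218 and 5315 in Ezh2 KO cells. The difference was 2.18 ± 0.16 (SD, n = 3, limma adjusted p = 0.0143). Cbx7 gave 834.5, 646.2 and 771.9 in wild type against 423.8, 392.5 and 362.7 in Ezh2 KO cells. Its difference was -0.93 ± 0.19 (SD, n = 3, limma adjusted p = 0.0299).

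Of 10 tested genes listed under p27 turnover 1 rose (8.35% of all genes tested) and 0 fell, with a median of -0.15. The list also holds genes that do not remove p27Kip1 itself. Fbxw7, a substrate receptor of SCF ligases that acts on cyclin E, rose by 0.92 ± 0.12 (SD, n = 3; limma adjusted p = 0.0256). Skp2, the receptor for p27Kip1, gave -0.38 ± 0.29, and Foxo1, an activator of Cdkn1b transcription, 0.56 ± 0.22, both short of the threshold (limma adjusted p = 0.149 and 0.0596). Rnf123 gave -0.55 ± 0.30 and did not pass (limma adjusted p = 0.0864).

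Markers of other cell types were read beside these values. Of 5 NK cell markers with a probe set 4, Ncr1 and Tyrobp among them, never reached the low-signal limit. The other one, Fcer1g, an Fc receptor chain that myeloid cells share, rose from 11.3 (the floor), 30.4 and 18.1 to 47.0, 86.0 and 110.3 (limma adjusted p = 0.0299), and was tested through its Ezh2 KO arrays alone. The NK list had summed intensities of 112 to 140.4 in wild type and 161 to 217 in Ezh2 KO. Of 9 myeloid markers 6 were under the limit everywhere and 0 of the 3 tested passed (summed 329.9 to 509.6 and 339.9 to 453.1), Lyz2 and Itgam among those under it. Of 5 B cell markers with a probe set 2 were under the limit everywhere, Ms4a1 rose, Ighm fell and Cd79b did not pass. Ms4a1 went from 83.7, 30.3 and 63.5 to 210.1, 188.9 and 669.4 (limma adjusted p = 0.0472). Cd79b was higher in each culture (0.56, limma adjusted p = 0.0604). Ighm gave 8363, 7221 and 8368 in wild type against 5454, 4094 and 4348 in Ezh2 KO cells. It made up most of the list's sum (7342 to 8634 and 4416 to 5848). All 3 erythroid markers were under the limit. The 2 CD8 chains did not pass (summed 389.3 to 414.4 and 373.7 to 539.8). Of 7 tested CD4 T cell markers 0 rose (8.35% of all genes tested) and 1 fell (7.98%), Cd2 by 0.64 (limma adjusted p = 0.0369). Cd4 itself gave 496.2, 476.9 and 548.1 in wild type against 433.0, 300.2 and 315.2 in Ezh2 KO cells, lower in each culture but not passing (-0.55, limma adjusted p = 0.0914). The part of such cells in the Cdkn2a and Cdkn2b values was not tested.

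Across the 6 arrays Cdkn2a and Cdkn2b followed each other with a Pearson r of 0.947, and both ran opposite to Cdkn1b (r = -0.959 and -0.929). These correlations, of floored values, describe 6 points that fall into 2 genotypes, so any genes that differ by genotype correlate. By the same measure, the 3 tested genes most like Cdkn1a were the p53 target Ccng1, Znrf2 and Gmds (r = 0.998, 0.998 and 0.997). Ccng1 gave 5832, 7315 and 7662 in wild type against 9994, 10029 and 10109 in Ezh2 KO cells, and did not pass between genotypes (limma adjusted p = 0.0594). Its lowest wild type value was in unpolarized cells, as for Cdkn1a. The same held for Znrf2 (1907, 2585 and 2638 in wild type) and Gmds (705.0, 874.9 and 869.3). These 3 genes were picked for their likeness to Cdkn1a on these arrays, so the shared low value follows from that choice. Cdkn2a was most like the Fc receptor gene Fcgr3, Prkar1a and LTO1, Cdkn2b like Slc9a9, Lpar6 and Rtl8c, Cdkn2c like Kit, Mfsd11 and Ptgr2, Cdkn2d like Pdia3, Skap2 and Acvr2a, Cdkn1b like Arid2, Snn and Parvg, and Cdkn1c like Alkbh4, Nkd2 and Psg23, with r from 0.974 to 0.999.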

How the data were processed

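The authors deposited linear intensities, a value for each probe set on each array, made with Affymetrix Expression Console per the submitters' processing notes. The version, the summarization algorithm and detection calls are not given in the sources used here. The deposited values share a trimmed mean (2% off each end) but not their distributions, so arrays had been scaled and not quantile normalized. The number of arrays limits the precision.

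Probe sets were named from the platform's annotation table (34945 with 1 symbol, 932 with several, 9160 with none, beside 64 controls; 34741 found by Entrez identifier in RefSeq GRCm38.p6, 0 symbols changed). Values were floored at 11.33 and taken to log2, so a difference understates the change of a gene near the floor. Each gene was read from its probe set of highest mean and tested where the highest value reached 64.43. Genotype and culture entered an additive model of the 6 arrays, fitted with limma 3.58.1 in R 4.3.3 (2 residual degrees of freedom), with Benjamini-Hochberg adjustment over all genes or all probe sets. Culture contrasts came from the same fit. It was tested on simulated data.

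The members and lists were chosen with earlier results of these data known. Genes named are the members, Ezh2, up to 4 genes of each pathway list by size of difference, 3 neighbours on each side, and the 3 genes most correlated with each member. Genes beyond these (among them Mdm2, Btg2, Jun, Tgfbr1, Cbx7, Cdk6, Gadd45a and Rrm2) complete the calls of a list, go against its median, or are cell type markers. They were named after their values were seen.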

Additional observations from a re-analysis of the deposited data

Results flagged for a closer look

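The genotype difference of Cdkn1c went in opposite directions in different cultures: -0.30 in unpolarized, -0.55 in Th1 and 0.32 in Th2 cells on the log2 scale. The step from unpolarized to Th2 was -0.21 in wild type and 0.41 in Ezh2 KO for the same gene. Cdkn2a went from unpolarized to Th1 by -0.58 in wild type and by 1.32 in Ezh2 KO, and Cdkn2b from unpolarized to Th2 by -1.60 in wild type, where the Th2 reading was at the floor, and by 0.63 in Ezh2 KO. The wild type readings behind the Cdkn2a and Cdkn2b steps were all under the low-signal limit. Moves under 0.1 were not counted, each value compares 2 single arrays, and none of these differences between groups was tested.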

How the results depend on the processing

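Over the alternatives for the genotype effect, the 4 called CDK inhibitor genes kept their direction in each, and Cdkn1c changed sign under 2 of them, to 0.004 with the floor at the median of all values and 0.005 without Th1 cultures. Every call of a member ended with no filter, with 0 higher and 0 lower among members and all genes or probe sets, and with any 1 culture left out, with 0 to 0 in each count. The first tests more features (18193 genes), and the second leaves fewer arrays, but whether either accounts for the lost calls was not tested. Taking the probe set with the highest variance left 459 genes higher, 242 lower and 0 members lower, with Cdkn1a at an adjusted p of 0.0587 and Cdkn1b at 0.0729. Elsewhere counts moved as follows, and the cause was not tested. An intensity trend in limma gave 1777 genes higher and 2206 lower (5 members higher), and 2726 and 3437 probe sets (6 members higher, 2 lower). It also called genes between cultures: 5 higher in Th2 than in unpolarized, and 3 higher and 13 lower in Th1 than in Th2. Median centring left 411 genes and 558 probe sets lower, with 0 member probe sets lower (Cdkn1b, adjusted p 0.0560), and ended the call of Ezh2 (0.0923). Testing only features above the 60th percentile gave 1766 genes lower, and 1978 probe sets higher and 2801 lower (2 members lower). A floor at the 40th percentile gave 1483 probe sets lower (2 members lower). The floor at the median, added after the data were seen, gave 1554 genes lower, and 1815 probe sets higher and 2158 lower (2 members lower). Without the culture block, 1571 genes were lower, and 1842 probe sets were higher and 2167 lower. No pairing by replicate or mouse was possible because the labels carry no replicate numbers. Culture served as the block, so each Ezh2 KO array was paired with the wild type array of its culture. The filter at that percentile removed Cdkn2a, Cdkn2b and Cdkn1c. Signal over background limits Cdkn1c, dim in both genotypes, and Cdkn2a and Cdkn2b in wild type.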

Other observations

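Of 15 genes often described as part of cell senescence, 13 had a named probe set, 8 were tested, and 5 never reached the low-signal limit. Mmp9, a matrix protease, was the 1 called gene of the list (16.3% of all genes tested were called). Its wild type values were 11.3 (the floor) in unpolarized, 35.4 in Th1 and 18.6 in Th2 cells, against 131.8, 161.4 and 494.1 in Ezh2 KO (limma adjusted p = 0.0396). All its wild type values were under the low-signal limit, so it was tested through the Ezh2 KO arrays alone and no fold is given. Il6 lay at the floor in every wild type culture and above the limit only in Ezh2 KO Th2 cells, at 173.5. The lamin gene Lmnb1, which is known to be lost in senescent cells, gave 4977, 4991 and 6584 in wild type against 4736, 4649.8 and 4272 in Ezh2 KO cells, without overlap but not passing (-0.27 ± 0.31, SD, n = 3). Igfbp7 went both ways over the cultures.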
